A study of Sus scrofa with 23 samples.

Results

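The cytosolic ribosomal proteins were followed here in pig Longissimus muscle as 34 genes, of 36108 gene names or accessions on the array, read through 200 of its 43603 non-control probes. A probe belonged to the set when its gene name on the array, or the symbol in its description, was RPS or RPL followed by a number, RPL3L, RPSA, RPLP0, RPLP1, RPLP2 or FAU, so neither the mitochondrial ribosomal proteins nor the RPS6K kinases entered. The naming rule itself used no measured value. The set held 104 probes of 16 large subunit genes and 96 probes of 18 small subunit genes. RPLP0, RPLP2, RPS6, RPS27A and the paralogues RPL3L, RPL10L, RPL22L, RPL39L and RPS27L had no probe under these names, so they were not analysed here, and RPS4X was present under the older name RPS4.

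The study addressed how selection on residual feed intake (RFI), the feed an animal eats beyond what its growth and maintenance predict, shows in muscle RNA. RFIneg were 7 pigs of the low-RFI line with free access to feed, RFIpl were 8 pigs of the high-RFI line with free access to feed, and RFIplR were 8 pigs of the high-RFI line restricted to the feeding level of the low-RFI line. All 23 pigs weighed 115 kg, and the labels used here gave neither their age nor their sex. RFIneg therefore differed from RFIpl in line and in feed intake, from RFIplR in line and in the way feed was offered, and RFIplR differed from RFIpl, as far as the labels say, in feed allowance alone. Selected lines also diverge by drift and by the animals that founded them, so a difference between lines cannot be told apart from these. The comparisons share pigs: RFIneg entered 2 of the 3, and so did each other group.

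Ribosomal proteins assemble with ribosomal RNA into the small subunit, which decodes the message, and the large subunit, which joins the amino acids. Their messages are among the most abundant of a cell, and most begin with an oligopyrimidine tract through which mTOR signalling and the LARP1 protein set their translation. In skeletal muscle the number of ribosomes is one of the limits on protein synthesis, and building them is costly in energy. Many of the proteins also have processed pseudogenes, copies of the message in the genome, so a probe may catch RNA of a near-identical copy, and every gene name below carries that uncertainty.

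The only ribosomal probes that passed the test in the main fit were of RPL6, a large subunit protein. Each array probe was a known stretch of 60 bases. Probes are called below by the position on the annotated transcript where the array's design places their start. The 5 RPL6 probes that passed the test between RFIneg and RFIplR are shown because they lie side by side on the message, and capitals mark the 17 bases that all 5 share.

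RPL6 start 622: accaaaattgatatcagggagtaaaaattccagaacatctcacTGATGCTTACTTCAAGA
RPL6 start 650: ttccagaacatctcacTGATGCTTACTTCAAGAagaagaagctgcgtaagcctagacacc
RPL6 start 654: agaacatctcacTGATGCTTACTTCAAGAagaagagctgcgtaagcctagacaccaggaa
RPL6 start 662: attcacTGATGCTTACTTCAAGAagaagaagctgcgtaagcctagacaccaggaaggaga
RPL6 start 666: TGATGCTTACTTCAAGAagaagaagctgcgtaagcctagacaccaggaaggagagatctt

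The same 17 bases stood in 1 more RPL6 probe, start 644. The next 2 probes are shown because the difference between groups dropped from one to the other although they overlap, and capitals mark the 37 bases they share.

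RPL6 start 692: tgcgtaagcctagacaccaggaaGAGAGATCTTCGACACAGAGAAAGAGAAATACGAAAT
RPL6 start 708: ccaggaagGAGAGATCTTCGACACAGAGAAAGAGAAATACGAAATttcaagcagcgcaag

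RPL14, another large subunit protein, had the largest gene median between RFIneg and RFIpl, and 4 of its 6 probes overlapped. Their fragments below show, in capitals, the bases that lie between a run shared by all 4 on the left and another on the right, since the 4 designs are not letter for letter the same.

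RPL14 start 615: gcatctggCAAGAaagcat
RPL14 start 621: gcatctggCAAGaagcat
RPL14 start 628: gcatctggAAGAaagcat
RPL14 start 637: gcatctggCGAGAaagcat

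RPS16, a small subunit protein, had 2 probes placed 1 base apart whose letters differed at 3 bases of their overlap, in capitals.

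RPS16 start 304: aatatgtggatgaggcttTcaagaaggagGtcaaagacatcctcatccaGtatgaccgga
RPS16 start 305: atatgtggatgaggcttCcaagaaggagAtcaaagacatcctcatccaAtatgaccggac

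Such near-duplicates were common in the set. Of 166 pairs of probes of one gene that shared at least 20 bases, over 27 genes, 44 matched exactly over the overlap and 122 differed by 1 to 4 edits. The pairs nonetheless gave nearly the same difference between RFIneg and RFIpl. The median gap was 0.01 in log2 over the 136 pairs outside RPL6, with a largest gap of 0.11, and 0.09 over the 30 pairs of RPL6, with a largest gap of 0.21. Overlapping probes share their target, so the counts of probes below are not counts of separate evidence, and the pigs were the replicates throughout.

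Levels are log2 of the processed spot signal minus the 75th percentile of that array, so 0 is the array's own upper quartile and a difference of 1 is a doubling of signal. A probe was tested when the scanner software marked it well above background in 6 or more pigs of any group, which kept 27788 probes, 194 of them ribosomal (103 large subunit, 91 small subunit) and covering all 34 genes. The 6 that were not kept were 1 probe of RPL32, 2 of RPS23, 1 of RPS26, 1 of RPS28 and 1 of RPS29. No ribosomal spot was saturated, 190 probes passed the background mark in every one of the 23 pigs, and 184 lay in the brightest 10% of the tested probes.

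The arrays differed in quality within each group. The share of probes well above background ran from 41.6% to 79.0% in RFIneg, from 54.4% to 77.5% in RFIpl and from 45.8% to 76.4% in RFIplR, with means of 66.4%, 67.1% and 65.4%, and the lowest array of every group lay on the same 1 of the 6 slides. The tissue label was borne out, with muscle fibre markers at a mean level of 8.69 to 9.27 in every pig over 8 of 9 listed genes. The 6 of 7 adipocyte markers measured had a mean level of 0.80 to 2.36 in RFIneg, 0.30 to 3.56 in RFIpl and 0.73 to 2.65 in RFIplR. In such whole tissue, fewer cells of a type and less RNA per cell cannot be told apart.

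Ribosomal protein messages stood slightly higher in the low-RFI line than in the high-RFI line with free feed, across nearly every gene, but no single probe passed the test, and with another background correction (normexp) the median difference was -0.029. Averaged over the 194 probes, the 7 RFIneg pigs had a level of 7.01 ± 0.10 (SD), the 8 RFIpl pigs 6.80 ± 0.09 and the 8 RFIplR pigs 6.86 ± 0.11. The RFIneg pigs ran from 6.88 through a median of 7.02 to 7.14, the RFIpl pigs from 6.62 through 6.80 to 6.92, and the RFIplR pigs from 6.69 through 6.89 to 6.99. Of the RFIneg pigs, 5 lay above the highest RFIpl pig, and the other 2 fell inside the range of that group. The 4 highest pigs of the 23 were all RFIneg, and the lowest was RFIpl pig 2, which was the lowest of all pigs in 117 of the 194 probes.

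**Figure D1:**
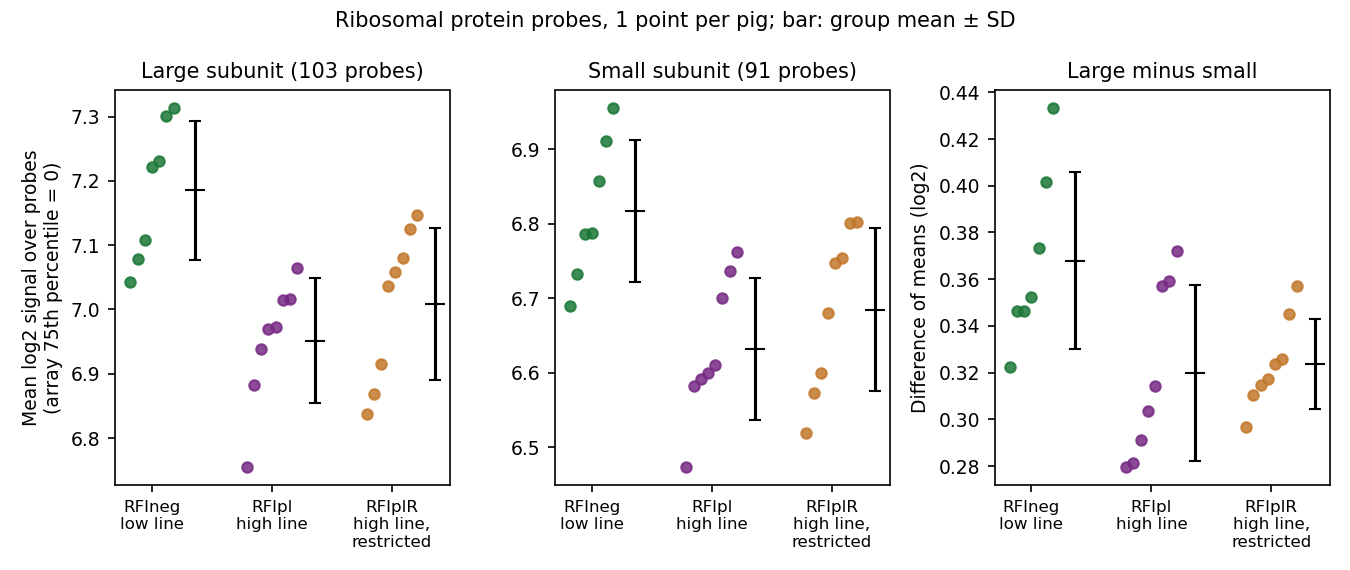
Mean log2 signal (array 75th percentile at 0) over the large subunit probes, over the small subunit probes, and the difference of these means, with 1 point for each pig and bars for the group mean and SD. RFIneg pigs had a large subunit mean of 7.19 ± 0.11 against 6.95 ± 0.10 in RFIpl, and a small subunit mean of 6.82 ± 0.10 against 6.63 ± 0.10, on the processed signal and not after normexp.

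Probe by probe, RFIneg exceeded RFIpl in 192 of 194 ribosomal probes, with a median difference of 0.21 and a middle range of 0.17 to 0.25, against 64 of 194 after normexp. Over all 27788 tested probes 55.3% were higher in RFIneg, with a median of 0.02, and among the 2595 other probes of the brightest 10% 65.8% were higher, with a median of 0.06. Limma called 0 ribosomal probes at an adjusted p of 0.05, where it called 0.122% of all probes (0.0432% as higher in RFIneg), and the smallest adjusted p of a ribosomal probe was 0.0717. At an unadjusted p of 0.05, 137 ribosomal probes (70.6%) were higher and 0 were lower, against 7.19% of all probes that were higher. Of the 2595 other bright probes, 434 were higher and 102 lower at that p. Many ribosomal probes overlap, and with only the brightest probe of each gene 27 of 34 genes reached that p. In 10 ribosomal probes (5.15%) every RFIneg pig lay above every RFIpl pig, which held for 0.252% of all probes and for 25 of the 2595 other bright probes. These 10 belonged to 4 genes: RPL6 (5 probes), RPL12 (2), RPS12 (2) and RPS16 (1).

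The height of the family against the whole array depended on the scale. Under median scaling and quantile normalization 192 and 188 of the 194 probes were higher in RFIneg than in RFIpl, with medians of 0.23 and 0.12. Under the normexp background correction, which starts from raw spot means, the ribosomal median was -0.029 and that of the other bright probes -0.16, while all probes had a median of 0.08. RPL14 and RPL6 had the highest gene medians there, 0.24 and 0.16, followed by RPS16 at 0.08. Some other gene medians were also positive there, and most were negative. After normexp the ribosomal mean varied more between pigs of a group, with an SD of 0.84 against 0.10 on the processed signal. The normexp shifts of the family lay within that SD.

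Against other bright probes the margin was smaller. The ribosomal mean less the mean of the other probes of the brightest 10%, taken in each pig, was 0.96 ± 0.08 in RFIneg, 0.80 ± 0.09 in RFIpl and 0.80 ± 0.09 in RFIplR, with ranges of 0.87 to 1.12, 0.68 to 0.95 and 0.70 to 0.94. The means of both high-RFI groups lay close together on this scale, and the RFIneg range overlapped both. After normexp RFIneg exceeded RFIpl by 0.17 and RFIplR by 0.12 on this scale, with an SD between pigs of a group of 0.12. Only the difference between pigs has a meaning here, since levels of different probes are not on one scale. The 10 ribosomal probes outside the brightest 10% had a median difference of 0.07 between RFIneg and RFIpl, below the 0.21 of the whole set.

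In the mean over all ribosomal probes the difference held on each slide and on both scan days, with unequal size. RFIneg exceeded RFIpl in this mean on 6 of 6 slides, by 0.01 to 0.35, and by 0.26 on the first scan day and 0.14 on the second. Without RPL6 and RPL14 RFIneg was higher than RFIpl on 5 of 6 slides (lowest -0.0099), and so was its small subunit mean (lowest -0.0109). Over all ribosomal probes RFIneg exceeded RFIplR on 6 of 6 slides, by 0.04 to 0.32, and by 0.21 and 0.08 on the scan days. RFIplR exceeded RFIpl on 2 of 6 slides, with 0.05 and 0.06 on the scan days, so this last difference of 0.06 lay within the spread between pigs. The highest pig of all was RFIneg pig 7, whose array also had the lowest share of probes above background. Leaving out any 1 pig left the difference between RFIneg and RFIpl at 0.19 to 0.23.

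Markers of other cells moved alongside. All 6 measured adipocyte markers were lower in RFIneg than in RFIpl, with a median difference of -0.79 (-0.82 to -0.76 over the other scalings and background correction), and none passed the test. Of 8 muscle fibre markers 7 were higher, with a median of 0.15 (0.0048 after quantile normalization and -0.097 after normexp), among them MYH1, a fast myosin heavy chain, at 0.26. Their part in the ribosomal difference was not tested.

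**Figure D2:**
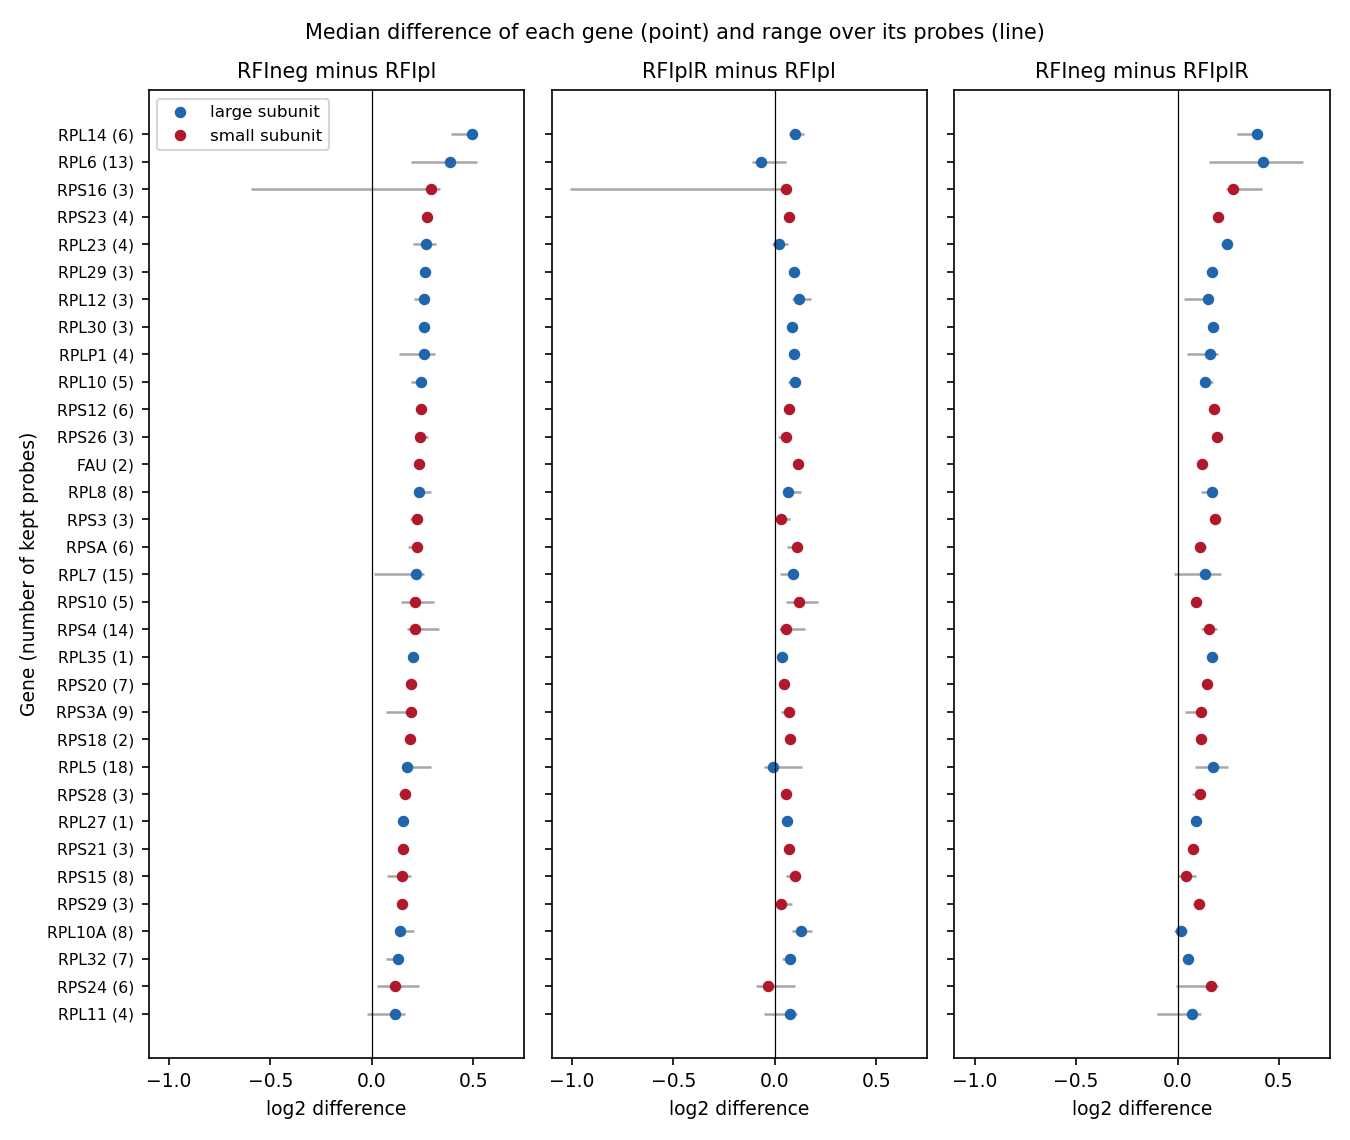
Differences in log2 signal for 33 ribosomal protein genes in the 3 comparisons, with a point for the median of a gene's probes and a line from its lowest to its highest probe. All 33 medians drawn lay above 0 for RFIneg minus RFIpl, from 0.11 (RPL11) to 0.50 (RPL14), while RFIplR minus RFIpl ran from -0.07 (RPL6) to 0.13 (RPL10A), and after normexp 12 and 0 of the medians of all 34 genes lay above 0 in these comparisons.

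The gene medians placed RPL6 and RPL14 apart from a narrow band of other genes. Every one of the 34 genes had a higher median in RFIneg than in RFIpl (12 of 34 after normexp), and in 32 of them every probe was higher. Below RPL14 (0.50) and RPL6 (0.38), the next was RPS16 at 0.29, and the lowest were RPL32 at 0.13 and RPL11 and RPS24 at 0.11. Without RPL6 and RPL14 the remaining 175 probes had a median difference of 0.20, so these genes did not set the value of the family.

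RPLP1, an acidic protein of the stalk on which elongation factors act, had 4 probes at 0.13 to 0.31 between RFIneg and RFIpl. Its brightest probe, start 436, was at 9.67, 9.71 and 9.75 (lowest, median, highest) in RFIneg, at 9.31, 9.55 and 9.84 in RFIpl and at 9.46, 9.67 and 9.87 in RFIplR. The RFIneg pigs were tightly grouped there, inside the range of both other groups, 0.13 above RFIpl on average (SE 0.08, limma adjusted p = 0.559). At its probe start 161 the difference was 0.31 (SE 0.10, limma adjusted p = 0.245).

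FAU, which encodes the small subunit protein eS30 fused to a ubiquitin-like protein, gave 0.22 and 0.25 in its 2 probes. Its probe start 439 ran from 7.80 through 7.96 to 8.09 in RFIneg, from 7.46 through 7.69 to 7.88 in RFIpl and from 7.56 through 7.84 to 7.94 in RFIplR, and the groups overlapped (RFIneg minus RFIpl 0.25, SE 0.08, limma adjusted p = 0.215). RPSA, the small subunit protein also known as the laminin receptor, gave 0.18 to 0.23 over 6 probes, all with unadjusted limma p under 0.05. RPS4, the X-linked form, gave 0.17 to 0.33 over 14 probes.

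Among the other large subunit genes, RPL23 gave 0.20 to 0.32 over 4 probes and RPL8 0.21 to 0.29 over 8. RPL10, which joins the large subunit late in its maturation, gave 0.19 to 0.26 over 5 probes, RPL29 0.24 to 0.27 over 3 and RPL30 0.25 to 0.28 over 3. RPL7 gave 0.01 to 0.26 over 15 probes, its lowest at start 1071, and RPL32 gave 0.07 to 0.15 over 7 with none at an unadjusted p under 0.05. RPL5 and RPL11, which bind the 5S ribosomal RNA and, when free, the p53 regulator MDM2, gave 0.15 to 0.29 over 18 probes and -0.03 to 0.16 over 4.

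RPL12 is a protein at the base of the stalk. In 2 of its 3 probes every RFIneg pig lay above every RFIpl pig, which held for 0.252% of all probes. Its probe start 400 ran from 6.73 through 6.85 to 6.91 in RFIneg, from 6.26 through 6.56 to 6.71 in RFIpl and from 6.52 through 6.66 to 6.87 in RFIplR. The RFIneg and RFIpl ranges did not overlap, and RFIneg lay 0.27 higher (SE 0.07), which missed the threshold (limma adjusted p = 0.16). The remaining probe, start 530, was dim at -1.14 to -0.03 and had one of the 3 largest spreads within groups of any ribosomal probe (SD 0.27), next to RPS16 start 431 (0.86) and RPL14 start 621 (0.25).

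In the small subunit, RPS12 was the steadiest gene, with 2 of the 3 smallest spreads within groups (RPS12 starts 337 and 343, and RPS3A start 652, each with an SD of 0.09). Its 6 probes gave 0.22 to 0.26. At start 343 the RFIneg pigs ran from 8.01 through 8.16 to 8.33, the RFIpl pigs from 7.85 through 7.93 to 8.00, and the RFIplR pigs from 7.83 through 8.01 to 8.10. The lowest RFIneg pig lay just above the highest RFIpl pig, and the difference was 0.24 (SE 0.06, limma adjusted p = 0.164).

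RPS23, which lies near the decoding centre, gave 0.24 to 0.29 over 4 probes, RPS26 0.21 to 0.27 over 3, and RPS10 0.14 to 0.31 over 5. RPS3 and RPS3A gave 0.19 to 0.24 over 3 probes and 0.07 to 0.21 over 9, and RPS20 gave 0.17 to 0.20 over 7. RPS15 (0.07 to 0.19, 8 probes), RPS21 (0.13 to 0.16, 3), RPS28 (0.13 to 0.17, 3) and RPS29 (0.13 to 0.16, 3) lay at the lower end. RPS24 gave 0.02 to 0.23 over 6 probes.

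Only RPS16 and RPL11 had a probe that was lower in RFIneg. The RPL11 probe start 920 was at -0.03 (SE 0.09). The RPS16 probes starts 304 and 305, whose letters are shown above, gave 0.29 and 0.33, while its probe start 431 gave -0.59 (SE 0.42). That probe was dim, well above background on 18 arrays, and 1 RFIpl pig stood far from the rest at -0.27 when the other groups ended at -3.37 (RFIneg) and -3.77 (RFIplR), and without that pig RFIneg minus RFIpl was -0.16. The smallest differences relative to their error were those of RPL11 start 920, RPS24 start 831 and RPL7 start 1071.

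On the processed signal both subunits stood higher in RFIneg than in RFIpl, while after normexp 64 of all 194 probes were higher. No probe of either subunit passed the test in that comparison. The median difference between RFIneg and RFIpl was 0.22 over the large subunit probes (102 of 103 higher) and 0.20 over the small subunit probes (90 of 91 higher). The large minus small difference in each pig was 0.37 ± 0.04 in RFIneg, 0.32 ± 0.04 in RFIpl and 0.32 ± 0.02 in RFIplR, and all groups overlapped. Without RPL6 and RPL14 it was 0.53 ± 0.04, 0.52 ± 0.03 and 0.53 ± 0.03, and the gap between groups fell below the spread between pigs.

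RPL6 was the only gene with called probes, and they were called between RFIneg and the restricted RFIplR pigs. In that comparison 5 ribosomal probes passed (2.58%), all higher in RFIneg, where limma called 0.162% of all probes and 0.072% as higher in RFIneg. All 5 were RPL6 probes that share the 17 bases shown above, so they are not independent of each other. In 5 probes, RPL6 starts 622, 644, 654, 666 and 672, every RFIneg pig lay above every RFIplR pig, which held for 0.14% of all probes. In the F test over the 3 groups, 1 ribosomal probe passed, RPL6 start 666 (limma adjusted p = 0.0451), against 0.137% of all probes.

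At RPL6 start 666 the RFIneg pigs ran from 6.74 through 6.78 to 7.05, the RFIpl pigs from 6.07 through 6.44 to 6.62, and the RFIplR pigs from 6.20 through 6.34 to 6.68. The RFIneg pigs lay above all 16 high-RFI pigs, fed freely or restricted, whose ranges overlapped each other. The difference was 0.46 from RFIplR (SE 0.09, limma adjusted p = 0.0389) and 0.42 from RFIpl (SE 0.09, limma adjusted p = 0.074), with -0.04 between RFIplR and RFIpl.

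At RPL6 start 654 the RFIneg pigs ran from 6.57 through 6.67 to 6.82, the RFIpl pigs from 6.24 through 6.37 to 6.50, and the RFIplR pigs from 6.02 through 6.25 to 6.53. Again no RFIneg pig fell inside another group, and the difference from RFIplR was 0.42 (SE 0.08, limma adjusted p = 0.0391). At RPL6 start 622, the dimmest of the 5, they ran from 5.34 through 5.52 to 5.69, from 4.55 through 5.10 to 5.35 and from 4.57 through 4.92 to 5.30. The lowest RFIneg pig lay just below the highest RFIpl pig there, and the difference from RFIplR was the largest of any ribosomal probe, 0.62 (SE 0.13, limma adjusted p = 0.046). Starts 650 and 662 gave 0.48 (SE 0.10, limma adjusted p = 0.0474) and 0.47 (SE 0.10, limma adjusted p = 0.0476).

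The 5 calls stood close to the threshold, with limma adjusted p of 0.0389 to 0.0476. With the slide as a fixed block their adjusted p was 0.0572 to 0.0693 and none passed, while the differences were 0.43 to 0.62 and positive on 6 of 6 slides. With the slide as a random block 9 ribosomal probes passed. For these other fits the share of all probes called is not given, so their counts are no result about the ribosomal probes. The differences of the 5 called probes were 0.43 to 0.63 on the first scan day and 0.39 to 0.60 on the second. Leaving out 1 pig at a time gave 0 to 9 called probes: none was left without RFIneg pig 1, 2, 3, 5, 6 or 7, RFIpl pig 7, or RFIplR pig 2, 4, 6, 7 or 8. It was 1 without RFIpl pig 5 or RFIplR pig 3, 2 without RFIpl pig 3, and 3 without RFIneg pig 4 or RFIpl pig 2 or 8. It was 4 without RFIpl pig 1, 5 without RFIpl pig 4, 6 without RFIplR pig 5, 8 without RFIpl pig 6 and 9 without RFIplR pig 1.

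**Figure D3:**
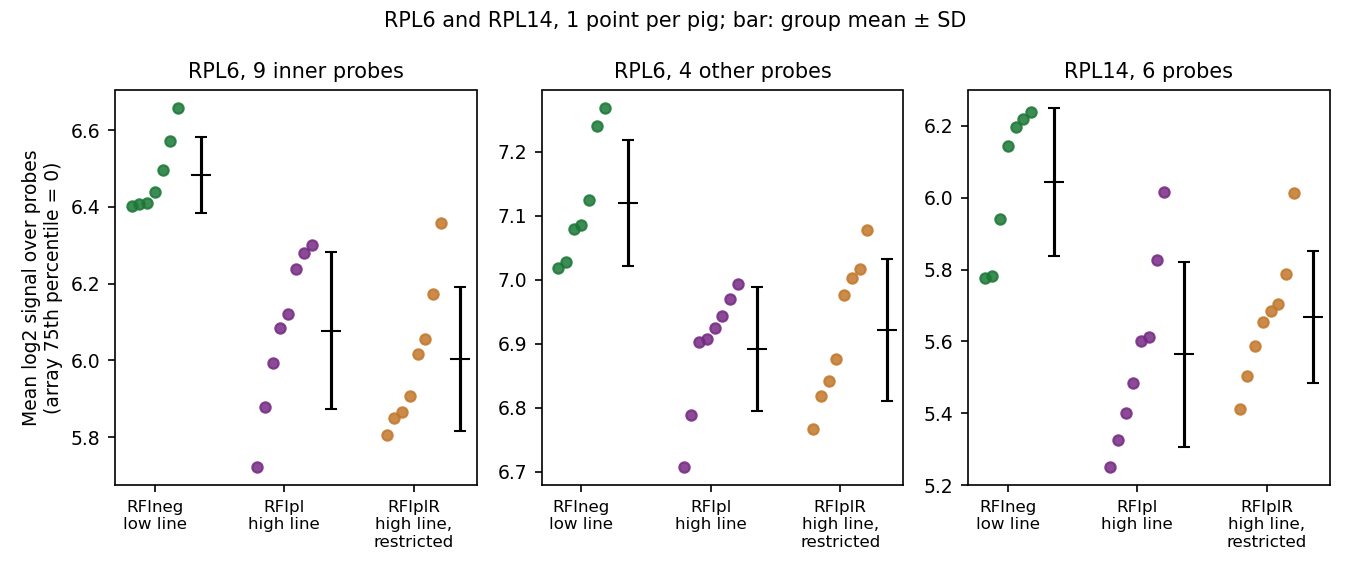
Mean log2 signal (array 75th percentile at 0) over 9 RPL6 probes, over the 4 other RPL6 probes and over 6 RPL14 probes, 1 point for each pig, with bars for the group mean and SD. Over the 9 RPL6 probes from start 617 to 692 the RFIneg pigs (6.40 to 6.66) lay above all RFIpl pigs (5.72 to 6.30) and all RFIplR pigs (5.80 to 6.36). The 9 were set apart by their difference between RFIneg and RFIplR, so this is a description with no test. Over the 4 other probes they (7.02 to 7.27) lay above all RFIpl pigs (6.71 to 6.99) and overlapped RFIplR, and the RPL14 means of the groups overlapped.

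The RPL6 difference was not even along the message. Its 13 probes fell, once their values were seen, into 9 with starts from 617 to 692 and 4 outside this stretch (starts 387, 708, 730 and 855), so what follows is a description with no test. The mean of the 9 was 6.48 ± 0.10 in RFIneg, 6.08 ± 0.20 in RFIpl and 6.004 ± 0.19 in RFIplR, which is 0.41 above RFIpl and 0.48 above RFIplR. The mean of the 4 was 7.12 ± 0.10, 6.89 ± 0.10 and 6.92 ± 0.11, which is 0.23 and 0.20, near the values of the other ribosomal genes, and every RFIneg pig lay above every RFIpl pig there too. Starts 692 and 708, which share 37 bases, gave 0.44 and 0.26 between RFIneg and RFIpl.

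Within single pigs, the mean of the 9 probes less the mean of the 4 was less even in the high-RFI line. The 7 RFIneg pigs had -0.74 to -0.55. Among the 8 RFIpl pigs, 4 had -0.70 to -0.59 and 4 had -1.25 to -0.91. Among the 8 RFIplR pigs, pig 1 had -0.65 and the other 7 had -1.01 to -0.91. No pig lay between -0.91 and -0.74, but a wider gap lay between -1.25 and -1.01. The 9 probes were set apart by their difference between RFIneg and RFIplR, so RFIneg pigs at the upper end follow from that choice and are no result. The sign of these values carries no meaning, since the probes are not on one scale, and only their spread between pigs does. All 4 pigs on 1 of the 6 slides, among them RFIplR pig 1 and RFIpl pigs 2 and 4, had -0.74 or higher, while each of the other 5 slides also held pigs at -0.91 or lower, and the part of the slide was not tested.

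RPL14 was also highest in RFIneg, over its whole set of probes, with RFIplR above RFIpl and with overlap between the groups. The mean of its 6 probes was 6.04 ± 0.21 in RFIneg (5.78 to 6.24), 5.56 ± 0.26 in RFIpl (5.25 to 6.02) and 5.67 ± 0.18 in RFIplR (5.41 to 6.01). Single probes gave 0.39 to 0.52 between RFIneg and RFIpl (limma adjusted p 0.101 to 0.209) and 0.30 to 0.41 between RFIneg and RFIplR, so none passed. At RPL14 start 637 the RFIneg pigs ran from 6.56 through 6.97 to 7.08, the RFIpl pigs from 6.001 through 6.37 to 6.77 and the RFIplR pigs from 6.23 through 6.49 to 6.77, and RFIneg exceeded RFIpl by 0.47 (SE 0.11, limma adjusted p = 0.101). The dim probe start 1387, designed on another transcript, gave 0.52. RFIneg exceeded RFIpl on 5 of 6 slides, by 0.56 on the first scan day and 0.36 on the second. It exceeded RFIplR on 5 of 6 slides, by 0.55 and 0.16 on the scan days. RFIplR exceeded RFIpl on 4 of 6 slides, by 0.0058 and 0.20 on the scan days. That last mean difference, 0.10, lay within the spread between pigs of a group (SD 0.22).

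**Figure D4:**
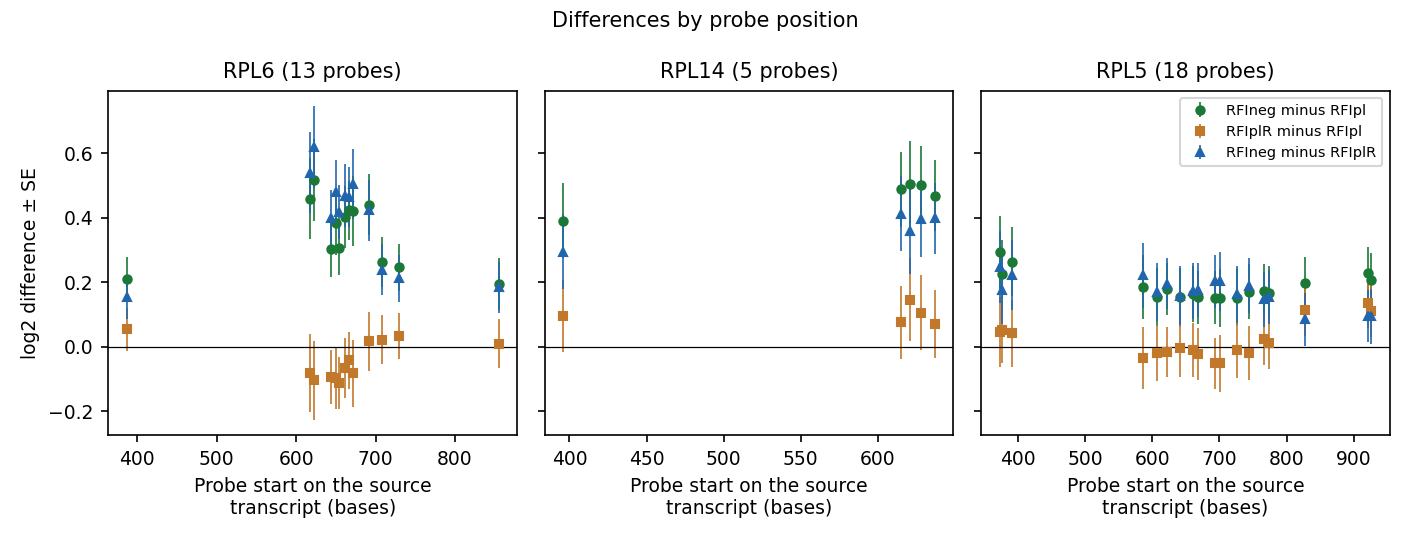
Differences in log2 signal of single probes (points, with bars for ± 1 SE) plotted against their start on the transcript, for 13 RPL6, 5 RPL14 and 18 RPL5 probes, in the 3 comparisons. The RPL14 probe of another transcript is left out. RPL6 probes from start 617 to 692 lay at 0.40 to 0.62 for RFIneg minus RFIplR, while its other probes lay at 0.16 to 0.24. The RPL5 probes lay at -0.05 to 0.14 for RFIplR minus RFIpl. The RPL6 stretch was set apart by these same RFIneg minus RFIplR values.

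Between the restricted and the freely fed pigs of the high-RFI line no ribosomal probe passed the test. Limma called 0 of the 194 ribosomal probes between RFIplR and RFIpl, and 0.0036% of all probes. The median difference was 0.07 with 169 probes higher, next to 0.06 for the other bright probes, of which 72.1% were higher. After normexp the ribosomal median was -0.76 with 5 probes higher, and the ribosomal mean had an SD of 0.84 between pigs of a group. On the processed signal at an unadjusted p of 0.05, 1 ribosomal probe was higher, against 4.95% of all probes, and 1 was lower. Of the 2595 other bright probes, 237 were higher and 37 lower at that p. In 0 ribosomal probes did every RFIplR pig lie above every RFIpl pig, which held for 0.0216% of all probes. Gene medians were positive in 31 of 34 genes, and the exceptions were RPL6 (-0.07), RPS24 (-0.03) and RPL5 (-0.01).

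The higher probe was RPS10 start 261, which ran from 5.96 through 6.08 to 6.36 in RFIplR and from 5.54 through 5.93 to 6.16 in RFIpl, with overlap, and RFIplR lay 0.21 higher (SE 0.09, limma adjusted p = 0.379). The lower one was the dim RPS16 start 431, at -1.01 (SE 0.40, limma adjusted p = 0.388), where 1 RFIpl pig stood apart, and at -0.58 without that pig. RPL10A, a large subunit protein, had the highest gene median, with 0.09 to 0.19 over 8 probes, and its probe start 108 ran from 5.68 through 6.07 to 6.18 in RFIplR and from 5.53 through 5.84 to 6.04 in RFIpl. RPL10A was also the gene in which RFIneg and RFIplR lay closest, at -0.02 to 0.05. The smallest differences relative to error were those of RPS24 start 392, RPS3 start 749 and RPL5 start 642.

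The RPL5 and RPS24 probes were grouped by position on the message once their values were seen, so this is a description with no test. The 15 RPL5 probes with starts from 373 to 774 gave -0.05 to 0.05 between RFIplR and RFIpl, while the 3 with starts 827, 921 and 926 gave 0.11 to 0.14. The 4 RPS24 probes from 246 to 392 gave -0.09 to -0.0044, and start 519 gave 0.10. The remaining RPS24 probe is in neither of these groups. None passed the test, and except at RPL5 start 921 (0.14, SD within groups 0.13) each was smaller than the SD between pigs of a group.

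Between RFIneg and RFIplR, which were fed at the same level, the family had a median difference of 0.14, with 189 of 194 probes higher in RFIneg, against 0.01 and 51.7% for the other bright probes. After normexp the median was 0.73 with 188 probes higher, and the other bright probes were at 0.62. The ribosomal mean then had an SD of 0.84 between pigs of a group. On the processed signal at an unadjusted p of 0.05, 62 ribosomal probes (32%) were higher and 0 were lower, against 5.57% of all probes that were higher. Of the 2595 other bright probes, 158 were higher and 186 lower at that p. With only the brightest probe of each gene, 12 of 34 genes reached that p. Without RPL6 and RPL14 the median of the remaining 175 probes was 0.14, with 170 higher in RFIneg and 43 of them at an unadjusted p under 0.05. All 34 gene medians were positive, from 0.02 in RPL10A to 0.42 in RPL6, followed by RPL14 (0.39), RPS16 (0.27) and RPL23 (0.24). RPL10A starts 541 and 554 and RPS15 start 1049 had the smallest differences relative to error.

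Other lists of the translation machinery were read through the brightest tested probe of each gene, and none held a called gene in any comparison. Of 19 genes other than ribosomal proteins whose messages carry the oligopyrimidine tract, 7 were measured and 5 were higher in RFIneg than in RFIpl, with a median of 0.24 that was -0.0085 after normexp. They included EEF1A1, the elongation factor that brings transfer RNA to the ribosome (0.50, limma adjusted p = 0.283), GNB2L1, the ribosome-bound scaffold RACK1 (0.32, limma adjusted p = 0.202), EIF3E (0.25) and TPT1 (0.24). PABPC1, the poly(A)-binding protein, was lower at -0.23, and at -0.36 in RFIplR against RFIpl (limma adjusted p = 0.192). NACA and HNRNPA1 gave 0.14 and -0.02.

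Genes that build ribosomes were split in direction. Of 33 assembly genes 10 were measured, and 6 were higher and 4 lower in RFIneg than in RFIpl, with a median of 0.01 that was -0.0026 after quantile normalization and -0.12 after normexp. DKC1, which takes part in the modification of ribosomal RNA, was at -0.18 (limma adjusted p = 0.442), and BYSL and RRS1 were at 0.19 and 0.18. Against RFIplR, 2 of the 10 were higher in RFIneg, with a median of -0.07 that was 0.23 after normexp. Mitochondrial ribosomal proteins gave a median of 0.02 over 13 genes between RFIneg and RFIpl (8 higher, 5 lower) and -0.10 between RFIneg and RFIplR (3 higher, 10 lower), and after normexp these medians were -0.13 and 0.45.

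Regulators of the pathway were split as well between RFIneg and RFIpl. Of 23 listed, 7 were measured, with a median of 0.08 between RFIneg and RFIpl (-0.012 after quantile normalization and -0.016 after normexp) and 4 of 7 higher. These were MTOR itself at 0.18, its substrate EIF4EBP1 at 0.20 (a dim probe, level -1.56), EIF4EBP2 at 0.20 and ATF4 at 0.08. EIF2AK3 was lower at -0.37, DDIT4 at -0.15 and AKT1 at -0.06. DDIT4, an inhibitor of mTOR signalling, was at -0.69 between RFIneg and RFIplR (limma adjusted p = 0.458) and at 0.55 between RFIplR and RFIpl, and none of these passed after adjustment. Of the remaining cell markers, 1 of 4 leukocyte, 2 of 5 fibroblast and 1 of 4 endothelial genes were higher in RFIneg than in RFIpl, and none passed the test. The fibroblast list had a median of -0.06, with COL3A1 and COL1A2, both collagens, at 0.26 and 0.18 and FN1 (fibronectin) at -0.69 (limma adjusted p = 0.118).

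**Figure D5:**
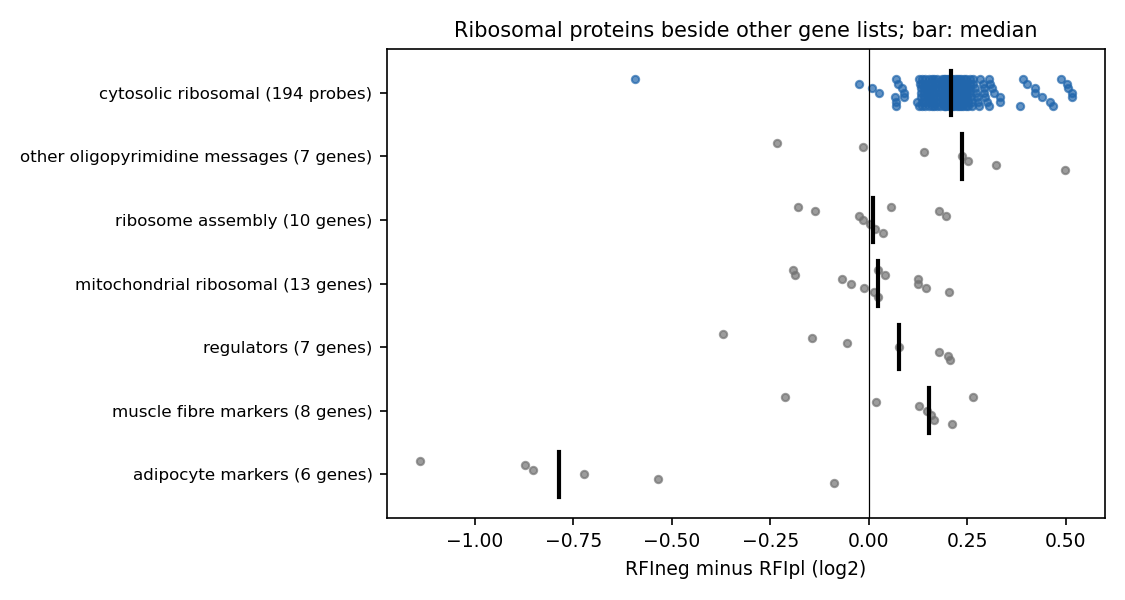
Differences in log2 signal between RFIneg and RFIpl for the ribosomal probes and for the brightest probe of each gene in the other lists, with a point for each probe or gene and a bar for the list median. The ribosomal median was 0.21, next to 0.24 for the other oligopyrimidine messages, 0.02 for the mitochondrial ribosomal proteins and 0.01 for the assembly genes, and each of these 4 was below 0 after normexp.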

How the data were processed

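Longissimus RNA of 23 pigs was labelled with Cy3 and hybridised to single-colour Agilent arrays with 1 pig on each, per the labels. The intensity values were background-subtracted by the scanner software (Feature Extraction 10.7.3.1), per the file headers, and were not scaled across arrays. R 2.10.0 is listed in the submitters' processing notes. The deposited value table held log2 processed signals of 26410 rows, centred on each array's median, and was used as an alternative. No genome build was given in the sources used here.

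Signals of 43803 non-control spots were taken to log2 and the 75th percentile of each array was subtracted. Outlier spots were set to missing (470 values of tested probes, 3 of them ribosomal), and spots of a probe were averaged. Probes marked well above background in 6 or more pigs of any group were fitted with limma 3.58.1 in R 4.3.3 (lmFit and eBayes, 3 groups, 3 contrasts and an F test), with Benjamini-Hochberg adjustment over 27788 probes and a threshold of 0.05. The fit was also run on simulated data with independent noise in each probe. Real probes vary together within a pig, so that run does not bear on the counts above. Each array was 1 animal, so precision is limited by how many arrays there are. RefSeq gave a symbol for 152 of the 200 ribosomal probes.

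The family and the lists were chosen with earlier results of these data known, and the naming rule for members used no measured value. Genes named are those with 3 or more probes or a special role, called genes, the probes with the 5 smallest and 3 largest p in a comparison, the 3 largest and smallest spreads, and genes whose probes differ in sign by over 0.3. 1 gene of the set is counted in the totals and not reported here by name. Lists of red blood cell and satellite cell markers had no measured gene. Alternatives covered scaling, background correction, filters, weights, slide, scan day, replicate number and each pig left out.

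Replicate numbers are shared by the groups in the labels, but the pigs were different animals. Deviations of same-numbered pigs correlated at -0.301 to 0.331 over 22 pairs (median 0.048), with 7 above 0.1. Those of differently numbered pigs correlated at -0.423 to 0.562 over 154 pairs (median -0.013), with 39 above 0.1. The numbers were not used as pairs.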

Additional observations from a re-analysis of the deposited data

Results flagged for a closer look

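Of 69 group values checked for a single pig far from the others, 3 stood out, and chance gives about 1 in 20. RFIplR pig 1 had -0.65 for the RPL6 probes from start 617 to 692 less the other RPL6 probes, when the next RFIplR pig had -0.91. At RPL6 start 666, RFIneg pig 1 had 7.05, when the next RFIneg pig had 6.87. At the dim RPS16 start 431, RFIpl pig 2 had -0.27, when the next RFIpl pig had -2.86.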

How the results depend on the processing

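The count of 5 ribosomal probes between RFIneg and RFIplR became 0 under median scaling, normexp background, no filter, slide as a fixed block, the deposited table, 1 probe per gene, the replicate number as a replicate block (adjusted p 0.0766 to 0.0906) and without the slide of lowest detection. It was 2 under quantile normalization, array weights, scan day as a block and only the 2 groups compared, 8 when probes had to be above background on all arrays, and 9 with trend and robust fitting or slide as a random block. Leaving out 1 pig gave 0 to 9. The F test count of 1 became 0 under median scaling, quantile normalization, normexp, no filter, slide as a fixed block, scan day, the replicate block, the deposited table, 1 probe per gene and without that slide, 7 with the all-array filter, 8 with trend and robust fitting, 6 with weights, 9 with slide as a random block, and 0 to 8 with 1 pig left out. The count of 0 between RFIneg and RFIpl became 2 with trend and robust fitting, 7 with weights, 2 with slide as a random block, and 0 to 2 with 1 pig left out, and it was 0 between RFIplR and RFIpl throughout. All these are counts of ribosomal probes alone, without the share of all probes called in the same fit, so a higher count is no result about the family. Normexp background moved the medians of the ribosomal probes to -0.029 (RFIneg minus RFIpl), -0.76 (RFIplR minus RFIpl) and 0.73 (RFIneg minus RFIplR), with the other bright probes at -0.16, -0.78 and 0.62 and all probes at 0.08, 0.21 and -0.14, and the cause was not tested. The SD of the ribosomal mean between pigs of a group was 0.84 after normexp and 0.10 in the main setting. Under normexp, RFIplR minus RFIpl also reversed for RPS10 start 261 (-0.63), RPS16 start 431 (0.31), RPL10A starts 108 (-0.66) and 554 (-0.72) and RPL5 start 921 (-0.69). Under the other settings the RFIneg minus RFIpl median was 0.12 to 0.23. With 1 pig left out the medians were 0.18 to 0.23, 0.04 to 0.09 and 0.12 to 0.17. The large minus small difference was 0.0068 with 1 probe per gene and 0.0101 without RPL6 and RPL14 for RFIneg minus RFIpl, and -0.00017 and -0.0042 for RFIneg minus RFIplR. With 1 pig left out it was 0.03 to 0.05 in both, and -0.0034 to 0.0099 for RFIplR minus RFIpl. Leaving out the slide of lowest detection and leaving out RPL6 and RPL14 were chosen after seeing the data. The replicate block changed no call beyond those given.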
